A study of Mus musculus with 56 samples.

Results

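Binding of p65 was compared between untreated macrophages and macrophages exposed to LPS for 1 hr. The p65 protein (RelA, encoded by Rela) is the transactivating subunit of the most common form of NF-κB, and it was mapped genome-wide by ChIP-seq, in which DNA fragments recovered with an antibody are sequenced. The members are all p65 peaks of 4 libraries, namely 9706 and 9556 peaks in control replicates 1 and 2 and 26305 and 26820 peaks in LPS replicates 1 and 2. These 72387 peaks were taken from 1610519 peaks in the 56 peak lists of the series, and they merged into 34145 regions of the mm10 genome.

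In resting macrophages most NF-κB is held in the cytoplasm by inhibitors of the IκB family. LPS, a cell wall component of Gram-negative bacteria, binds CD14, MD-2, and the receptor TLR4, and signaling through MyD88 and TRIF then leads to degradation of IκB. NF-κB moves into the nucleus, binds κB sites at promoters and enhancers, and activates cytokine and chemokine genes together with genes of its own inhibitors. In macrophages many of these enhancers are already marked by the lineage factor PU.1 and the acetyltransferase p300.

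The cells were bone marrow-derived macrophages (BMDMs) of wild-type mice aged 8 to 12 weeks, grown for several days in medium with MCSF from L929 cell supernatant. The control groups (ctrl_ctrl) received neither IL-4 nor LPS, and the LPS groups (ctrl_1hLPS) received 100 ng/ml LPS for 1 hr without IL-4. The p65 antibody was sc-372, and chromatin was fixed with DSG and formaldehyde. RNAPII phosphorylated on Ser5 or Ser2 was mapped in the same 2 conditions, and PU.1, p300, and H3K27Ac in untreated BMDMs, with 2 replicates each, and a further set of p65 libraries came from cells pretreated with 20 ng/ml IL-4 for 24 hr. The labels do not say whether the 2 replicates of a group were separate animals, so the p-values measure only the spread between these samples. Cells of other types could share the culture, and a change in the share of bound cells cannot be told apart from a change in binding per cell.

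Each peak carries a score from the peak caller, a −log10 p- or q-value, which rises with enrichment and also with the number of reads. Neither reads nor coverage were in the files used here, and the depth of the libraries is unknown. Regions with p65 peaks carried κB letters in both conditions. The κB motif searched here was GGGA and TTCC with any 2 bases between them, on either strand. The window was the 200 bp around the center of a merged region's highest peak in any of the 4 libraries. The motif was in 6.96% and 6.85% of regions with a peak in control replicates 1 and 2, and in 4.62% for each LPS library. Of the control regions, 79.37% and 81.25% also had a peak in the LPS library of the same number, which could supply the center. The same letters were in 0.435% of 30117 PU.1 peaks that overlapped no p65 region and in 1.04% of 32843 promoter windows of the same length from RefSeq (GRCm38). RNAPII-pS5 peaks were annotated to 19 to 23 of 24 macrophage identity genes in the 4 libraries, with Cebpb at 0 in each, and to 8 to 10 of 24 genes of other hematopoietic cells, with Cd3e, Pax5, Gata1, and Mpo at 0 in each. Members of the latter list with a pS5 peak in each library were Cd3d, Ms4a1, Klrb1c, S100a8, S100a9, and Flt3. The summed pS5 scores were 1464 to 1478 in the controls and 1046 to 1191 after LPS for the first list, and 118 to 146 and 143 to 144 for the second, and their part in the results was not tested.

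Some p65-bound sequences on which the results turn are shown here, each as 80 bases of the plus or minus strand of mm10. The first 4 are regions already occupied in control cells that hold the κB motif, at genes of the NF-κB system or its known targets. The last 4 are new or enhanced regions that hold the AP-1 letters TGANTCA, and those of Ell2 and Ptges were among the largest rises. Capitals mark the letters matched on either strand.
Nfkbia promoter, chr12:55492632-55492711, plus strand: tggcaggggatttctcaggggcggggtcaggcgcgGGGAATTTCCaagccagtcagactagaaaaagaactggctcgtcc
Cxcl2 promoter, chr5:90903767-90903846, plus strand: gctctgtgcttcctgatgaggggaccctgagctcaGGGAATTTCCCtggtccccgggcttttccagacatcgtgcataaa
Il1b upstream region, chr2:129380889-129380968, plus strand: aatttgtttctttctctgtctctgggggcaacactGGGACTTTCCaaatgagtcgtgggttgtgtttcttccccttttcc
Nfkb1 intron 1, chr3:135670735-135670814, minus strand: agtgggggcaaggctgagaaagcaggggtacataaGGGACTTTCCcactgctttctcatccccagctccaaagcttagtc
Ell2 intron 4, chr13:75754570-75754649, plus strand: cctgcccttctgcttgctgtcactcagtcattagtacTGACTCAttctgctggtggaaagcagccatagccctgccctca
Ptges upstream region, chr2:30913261-30913340, plus strand: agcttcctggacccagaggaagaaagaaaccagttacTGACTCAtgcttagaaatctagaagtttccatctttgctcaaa
Tnfaip3 upstream region, chr10:19077939-19078018, plus strand: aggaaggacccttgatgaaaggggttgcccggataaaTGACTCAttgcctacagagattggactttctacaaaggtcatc
Olfr432 intergenic region, chr1:174053154-174053233, plus strand: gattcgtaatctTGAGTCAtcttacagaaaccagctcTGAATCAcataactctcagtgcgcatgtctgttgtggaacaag

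LPS brought p65 to many regions where no control peak had been called. Of the 34145 regions, 12244 (35.9%) had a peak in both LPS libraries and in neither control library, and these are called gained. A further 5619 regions had a peak in all 4 libraries and are called shared. Only 442 regions (1.29%) had a peak in both controls and in neither LPS library, and these are called lost. The remaining regions were called in 1 library only (9366 in 1 LPS library and 1845 in 1 control library) or in another combination (3066 in both LPS libraries and 1 control, 1066 in 1 of each, and 497 in both controls and 1 LPS library). Replicates shared 6558 regions between the controls, which were 68.18% and 69.22% of their regions, and 20929 between the LPS libraries, which were 80.06% and 78.55%.

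The new regions were mostly weak ones. Among regions with a peak in both LPS libraries, 79.3% of those with a mean LPS score under 5 had no control peak, and the share fell with each higher score class to 59.8% at 10 to 20 and to 6.22% (26 of 418) above a score of 80. Conversely, 7.34% of the weakest and 90.4% of the strongest regions had a peak in both controls. Regions strongly bound after LPS thus mostly had control peaks, and 26 had none. A site just under the calling limit in a control library counts as unbound here.

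**Figure D1:**
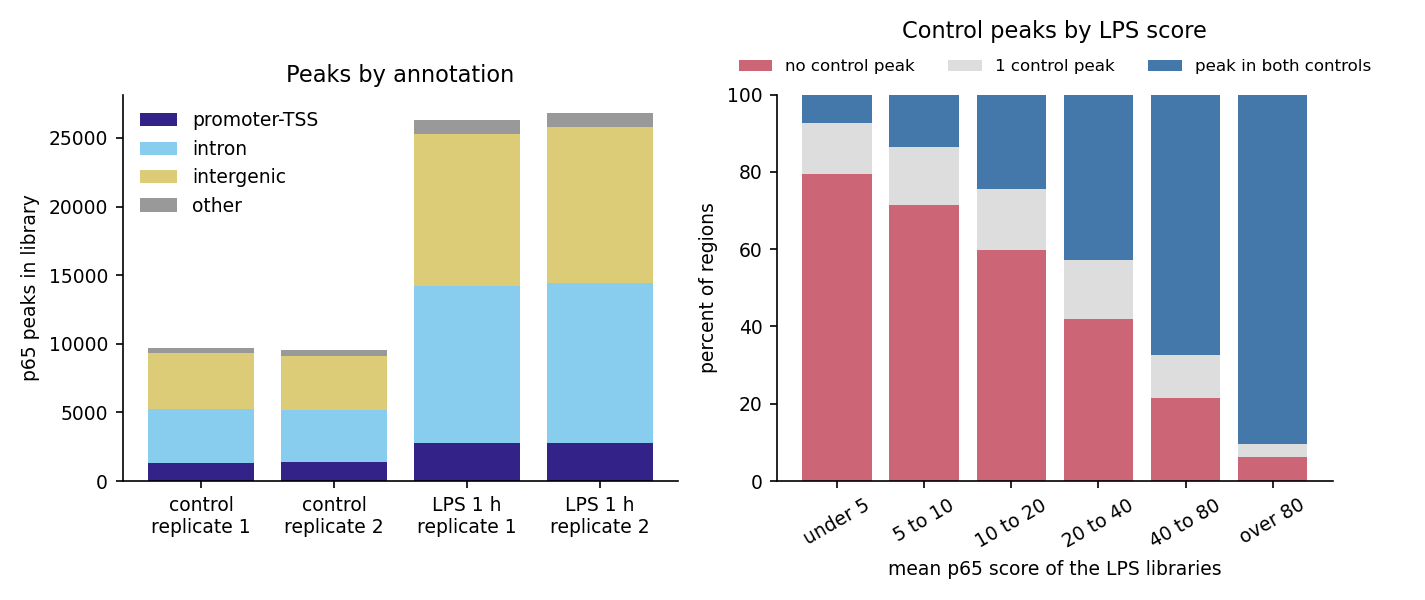
Left, p65 peaks per library (y axis, number) stacked by HOMER annotation for the 2 control and 2 LPS libraries. Right, regions with a peak in both LPS libraries, grouped by mean LPS score (x axis), with the percent that had no, 1, or 2 control peaks (y axis). The LPS libraries hold 26305 and 26820 peaks against 9706 and 9556 in the controls, and the share without a control peak falls from 79.3% to 6.22% with rising LPS score.

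Promoters took a smaller share of the p65 peaks after LPS. Peaks annotated to a promoter made up 13.6% and 14.5% of control peaks and 10.4% of the peaks of both LPS libraries, while their number was 1324 and 1382 in the controls and 2741 and 2802 after LPS. Introns held 40.4% and 39.7% of control peaks and 43.5% and 43.2% of LPS peaks. Regions with a peak in both LPS libraries were grouped by distance to a transcription start site (TSS). Of those within 1 kb, 48.7% were gained, against 58.9% of those at 1 to 10 kb, 59.2% at 10 to 50 kb, and 62.1% beyond 50 kb. Control and LPS libraries did not overlap in the promoter or the intron share. Peaks were annotated to 5776 and 5657 genes in the controls and to 9968 and 10070 genes after LPS.

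Most regions bound in all 4 libraries had higher scores after LPS. Their median score was 9.91 and 10.01 in the controls and 21.42 and 21.84 after LPS, and the median raw ratio was 1.912-fold, with the 10th and 90th percentiles at 0.7527 and 5.321. Both LPS scores lay above both control scores at 3710 of the 5619 regions (66.03%), and both lay below at 538 (9.575%). After the centering described next, the groups were separated upward at 65.1% and downward at 14.2% of all 22934 regions tested. These centered shares cannot be set against the raw ones, since 12244 of the regions tested were gained ones without a control peak. Over the shared regions the log2 scores correlated with Pearson's r of 0.8251 between the controls and 0.913 between the LPS libraries, and with 0.5081 and 0.5111 between control and LPS libraries of the same number. These correlations run across regions, which share a library and are not replicates. The increase was smaller near promoters, with a median ratio of 1.555-fold at 797 regions within 1 kb of a TSS and 2.062-fold at 2176 regions 10 to 50 kb away, and no test of this difference was run.

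Because a general rise in scores could come from binding or from sequencing depth, regions were tested with limma on log2 scores after each library was centered on the median of the shared regions. This removed a shift of 1.119 log2 units between LPS and control libraries. Of 22934 regions with a peak in at least 2 libraries, 9921 (43.3%) were higher and 1597 (6.96%) lower after LPS at an adjusted p of at most 0.05. Without centering the counts were 15261 (66.5%) higher and 609 (2.66%) lower, so the share of higher calls moved from 86.13% to 96.16%. Higher calls did not outnumber lower ones under every setting. They were 3435 against 7656 with a floor for missing peaks 4 times as high and 954 against 1332 where a peak was required in every library. Lower calls also outnumbered higher ones when either LPS replicate was left out. With quantile normalization the counts were nearly equal, at 2861 higher and 2835 lower. Gained regions made up 8980 of the higher calls, but they entered the test only through the LPS libraries and had to differ. Among the 5619 shared regions, 729 were higher and 1042 lower relative to the median shared region, against 2513 and 161 without centering.

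The 10 regions with the largest rise had no control peak and lay near Ell2, 1700016G22Rik, Siglecg, Inpp5b, Il12b, Ppm1h, Amz2, Ptges, Tmem2, and Nfkb1. The strongest was in intron 4 of Ell2, a component of the super elongation complex, with scores of 126 and 140 after LPS. The intergenic region at -9790 bp from the TSS of Il12b, which encodes the p40 subunit of IL-12 and IL-23, scored 108 and 104. At Ptges, the gene of the inducible prostaglandin E synthase, the region at -10083 bp scored 94.8 and 106. Nfkb1, which encodes the p105 precursor of the NF-κB subunit p50, gained a region in intron 6 with scores of 101 and 89.8. The lowest LPS score among the 10 regions was 83.19, and no fold is given because no control peak was called.

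Some regions with weak control peaks became strongly bound after LPS. The region 2838 bp from the TSS of Olfr432, an olfactory receptor gene, scored 4.74 and 7.45 in the controls and 156 and 165 after LPS (centered log2 change 3.64 ± 0.28 SE, adjusted p = 0.00462). A region in intron 2 of Sbds, a ribosome maturation factor, went from 5.97 and 4.49 to 112 and 116 (3.34 ± 0.22, adjusted p = 0.00418). A region in intron 2 of Igf2bp2, an RNA-binding protein, went from 4.14 and 4.68 to 106 and 87.2 (3.33 ± 0.21, adjusted p = 0.00417). In each of the 3, the lowest LPS score lay far above the highest control score.

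Losses of binding were fewer than gains. A region in intron 3 of Arid3a, a DNA-binding protein gene, scored 38.9 and 43.9 in the controls and 7.57 and 5.35 after LPS (centered log2 change -3.82 ± 0.28 SE, adjusted p = 0.00438). A region in intron 3 of Fam168b fell from 41.7 and 49.2 to 5.63 and 9.59 (-3.74 ± 0.34, adjusted p = 0.00596). At an exon of Lrch3 close to its TSS, which holds a κB match, scores fell from 15.3 and 23.1 to 3.64 and 3.77 (-3.46 ± 0.29, adjusted p = 0.00528). The control and LPS scores of these regions did not overlap, and all 3 were also lower on the raw scale. Among lost regions, the promoter of Sirpa, an inhibitory receptor of macrophages, had scores of 24.3 and 14.1 in the controls and no peak after LPS, and intronic regions near Naa20 and Cyp4f16 had 22.7 and 16.7, and 17.0 and 20.7.

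**Figure D2:**
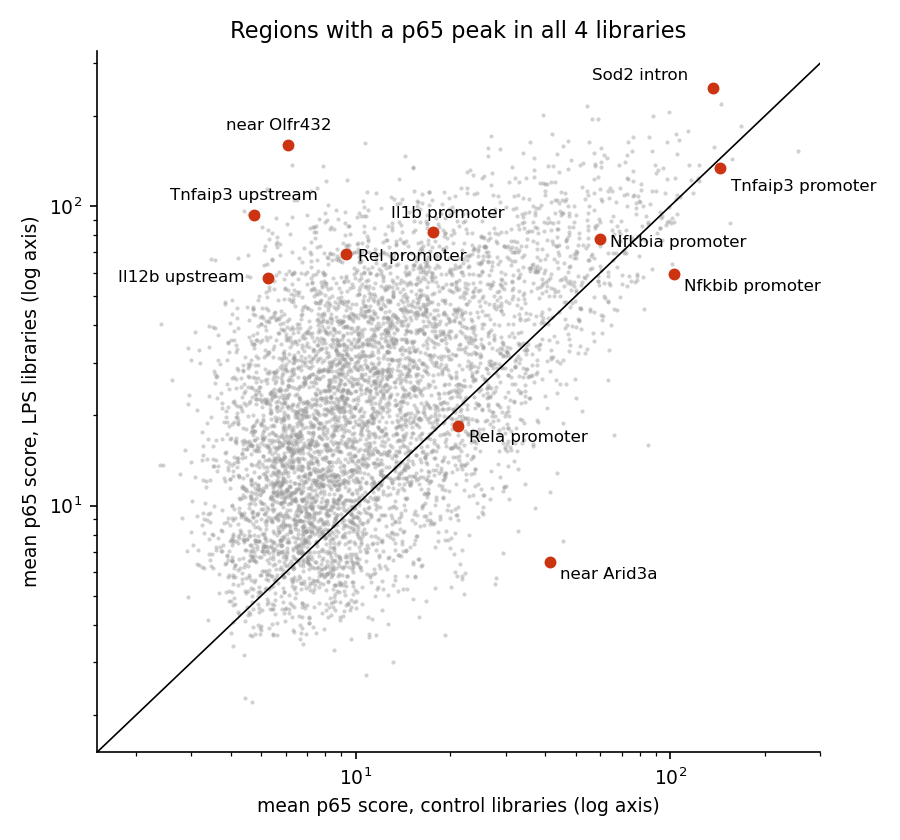
Mean p65 score of the 2 control libraries (x axis, log scale) against the mean of the 2 LPS libraries (y axis, log scale) for regions with a peak in all 4 libraries, with the line of equal scores. Gray points are regions and red points are named ones. Most points lie above the line, the regions near Olfr432 and upstream of Tnfaip3 far above it, and the Nfkbib promoter and the Arid3a region below it.

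At the genes of NF-κB itself, strong new binding lay beside peaks that scored much as before. The promoter of Rel, which encodes the subunit c-Rel, scored 8.69 and 9.86 in the controls and 68.5 and 69.5 after LPS (centered log2 change 1.78 ± 0.16 SE, adjusted p = 0.00554). A region in intron 3 of Rel had no peak in control replicate 1, a score of 8.05 in control replicate 2, and 111 and 121 after LPS (adjusted p = 0.0488, with the missing peak set at the floor of 1.31, as for every value below with 1 missing control peak). Both Rel regions separated the groups without overlap. The promoter of Nfkb1 scored 31.3 and 37.1 in the controls and 27.4 and 39.0 after LPS, so its groups overlapped, whereas the κB-containing region of intron 1 shown above rose from 34.6 and 39.2 to 133 and 157 (0.85 ± 0.12, adjusted p = 0.0138).

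Rela showed both patterns within its promoter. The peak closer to the TSS scored 19.8 and 22.5 in the controls and 18.8 and 18.2 after LPS, and the peak at -775 bp had no control peak and scored 44.9 and 50.5. The 2 promoter regions of Nfkb2, the gene of p100 and p52, scored 70.4 and 74.5 against 72.8 and 93.6, and 7.02 and 10.4 against 26.4 and 22.1. Relb, the partner of p52, had 27.7 and 35.9 against 39.7 and 46.0 at its promoter. Both LPS scores lay above both control scores at the second Nfkb2 region and at the Relb promoter, while the groups overlapped at the first Nfkb2 region.

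The inhibitors that NF-κB induces were heavily bound before LPS. Tnfaip3 encodes the ubiquitin-editing enzyme A20, and its promoter scored 149 and 140 in the controls and 138 and 129 after LPS (centered log2 change -1.23, adjusted p = 0.00417), so the raw scores were slightly lower as well. Its intronic region at 2496 bp fell from 155 and 154 to 70.1 and 105 (-1.97, adjusted p = 0.00835). In contrast, the AP-1-containing region at -62651 bp rose from 5.05 and 4.41 to 98.8 and 88.4 (3.19 ± 0.19 SE, adjusted p = 0.00417). Between this region and the gene, gained regions at -53122 and -30796 bp scored 69.6 and 66.6, and 71.5 and 67.0, with no control peak. Altogether Tnfaip3 had 11 gained and 8 shared among its 24 regions.

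Nfkbia encodes IκBα, the inhibitor that returns NF-κB to the cytoplasm. Its promoter, shown above, scored 58.1 and 61.2 in the controls and 65.6 and 89.8 after LPS, a difference that was a fall on the centered scale (-0.75, adjusted p = 0.0420) although both raw LPS scores were higher. A region at 853 bp fell from 72.2 and 54.5 to 31.2 and 21.5 (-2.40, adjusted p = 0.00997). Beyond the gene, 6 gained regions lay at 18570 to 42097 bp, the strongest with scores of 37.8 and 44.9. The promoter of Nfkbib, the gene of IκBβ, fell from 119 and 86.8 to 51.7 and 66.5 (-1.91, adjusted p = 0.00980), while a region 1143 bp from its TSS had no control peak and scored 33.1 and 36.9. Each of these 3 inhibitor genes thus had a strong control peak with lower raw scores after LPS and gained regions elsewhere.

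To describe genes, the scores of all peaks annotated to a gene were summed. The centering shift between LPS and control was 1.677 log2 units for genes, and of 9527 genes tested, 2156 (22.6%) were higher and 953 (10%) lower with centering, against 6338 (66.5%) and 163 (1.71%) without it. Lower genes outnumbered higher ones with the higher floor (1533 higher and 3500 lower), with peaks scoring at least 5 (1681 and 2075), with a peak in every library (839 and 1084), and without LPS replicate 1 (454 and 576) or 2 (474 and 593). The centered groups were separated upward at 47.5% and downward at 23.8% of the genes. Where sums after LPS are said below to lie above the control sums, the raw sums are meant. The share of all genes with raw sums separated in this way was not counted. The median gene changed by 0.43 log2 units with and 2.11 without centering. Of the genes tested, 2996 had no control peak and entered only through the LPS libraries. For the lists that follow, a fall on the centered scale therefore often meant a rise in score smaller than that of the typical bound gene.

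Of the 5 NF-κB subunit genes, Rel and Nfkb1 rose and Rela, Relb, and Nfkb2 fell on the centered scale, whereas without centering 3 of the 5 rose and none of their log2 changes was below 0. Rel went from summed scores of 28.1 and 38.8 to 245 and 258 (centered log2 change 1.25 ± 0.17 SE, adjusted p = 0.0165). Rela went from 50.3 and 41.0 to 82.5 and 84.0 (-0.80 ± 0.18, adjusted p = 0.0411), which was 0.87 without centering (adjusted p = 0.0155). Of 14 feedback inhibitors, 2 rose and 6 fell with centering, and 11 rose without it. Tnfaip3 had sums of 395 and 413 against 741 and 755, with a centered change of -0.79 (adjusted p = 0.0109) and an uncentered change of 0.89 (adjusted p = 0.00222). Socs3, which restrains cytokine receptor signaling, rose on both scales, from 81.1 and 78.1 to 434 and 470 (0.83, adjusted p = 0.0109). Cyld, a deubiquitinase, went from 33.6 and 27.9 to 8.20 and 19.2, a fall with centering (-2.96, adjusted p = 0.0244) that did not pass without it (adjusted p = 0.103).

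Most cytokine genes had higher p65 sums after LPS. Of 19 tested, 9 rose and 1 fell with centering, and 18 rose without it, and 3 had no control peak. Lif, a cytokine of the IL-6 family, had 4.11 and 4.42 in the controls, from a single peak each, and 205 and 216 after LPS, from 10 peaks in each library (3.95 ± 0.19 SE, adjusted p = 0.0109). Il1b, which encodes the pyrogenic cytokine IL-1β, went from 55.8 and 68.1 to 354 and 329 (0.79 ± 0.11, adjusted p = 0.0170). All Lif and Il1b sums after LPS lay above the control sums. Tnf had no peak in control replicate 1, 3.34 in control replicate 2, and 42.2 and 55.5 after LPS (adjusted p = 0.0313).

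Some cytokine genes had no control peak at all. Il12a, which encodes the p35 subunit of IL-12, had 4 gained regions and summed scores of 167 and 187 after LPS. Csf3, the gene of the granulocyte growth factor G-CSF, had 67.9 and 74.2 from 3 gained regions. At Il12b, the region at -27093 bp was occupied before LPS with 5.14 and 5.38 and rose to 59.2 and 55.96 (2.33 ± 0.18 SE, adjusted p = 0.00455), next to the gained region at -9790 bp. At Il1b, the promoter rose from 17.1 and 18.1 to 79.7 and 83.9 (1.098 ± 0.112, adjusted p = 0.00709). The κB-containing region at -9607 bp, shown above, scored 25.5 and 40.5 in the controls and 127 and 113 after LPS, and it did not pass with centering (0.78 ± 0.28, adjusted p = 0.0966). At Il6, the gene of the acute-phase cytokine IL-6, the promoter had no peak and 3.86 in the controls and 48.1 and 51.9 after LPS (adjusted p = 0.0249), and a region at -64774 bp was already strong, with 70.6 and 81.8 against 128 and 135.

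Chemokine genes, whose products recruit leukocytes, were divided. Of 15 tested, 4 rose and 2 fell with centering, and 14 rose without it. Cxcl1 had no peak in control replicate 1, 3.59 in control replicate 2, and 106 and 115 after LPS (adjusted p = 0.0170). Cxcl5 went from 15.8 and 25.6 to 176 and 159 (1.38 ± 0.27, adjusted p = 0.0321). The groups of both genes stood apart. Cxcl2 went from 22.1 and 17.7 to 92.9 and 104, which did not pass with centering (0.63 ± 0.21, adjusted p = 0.0987) and passed without it (2.31, adjusted p = 0.00321). Its κB-containing promoter region rose on its own, from 11.5 and 14.8 to 51.4 and 52.6 (0.87 ± 0.19, adjusted p = 0.0362). Ccl3 went from 26.4 and 32.3 to 87.3 and 94.3, a centered change of -0.04 (adjusted p = 0.864) and an uncentered one of 1.64 (adjusted p = 0.00479). Cxcl3 and Ccl22 had no control peak and summed to 25.7 and 17.97, and to 18.6 and 18.2.

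**Figure D3:**
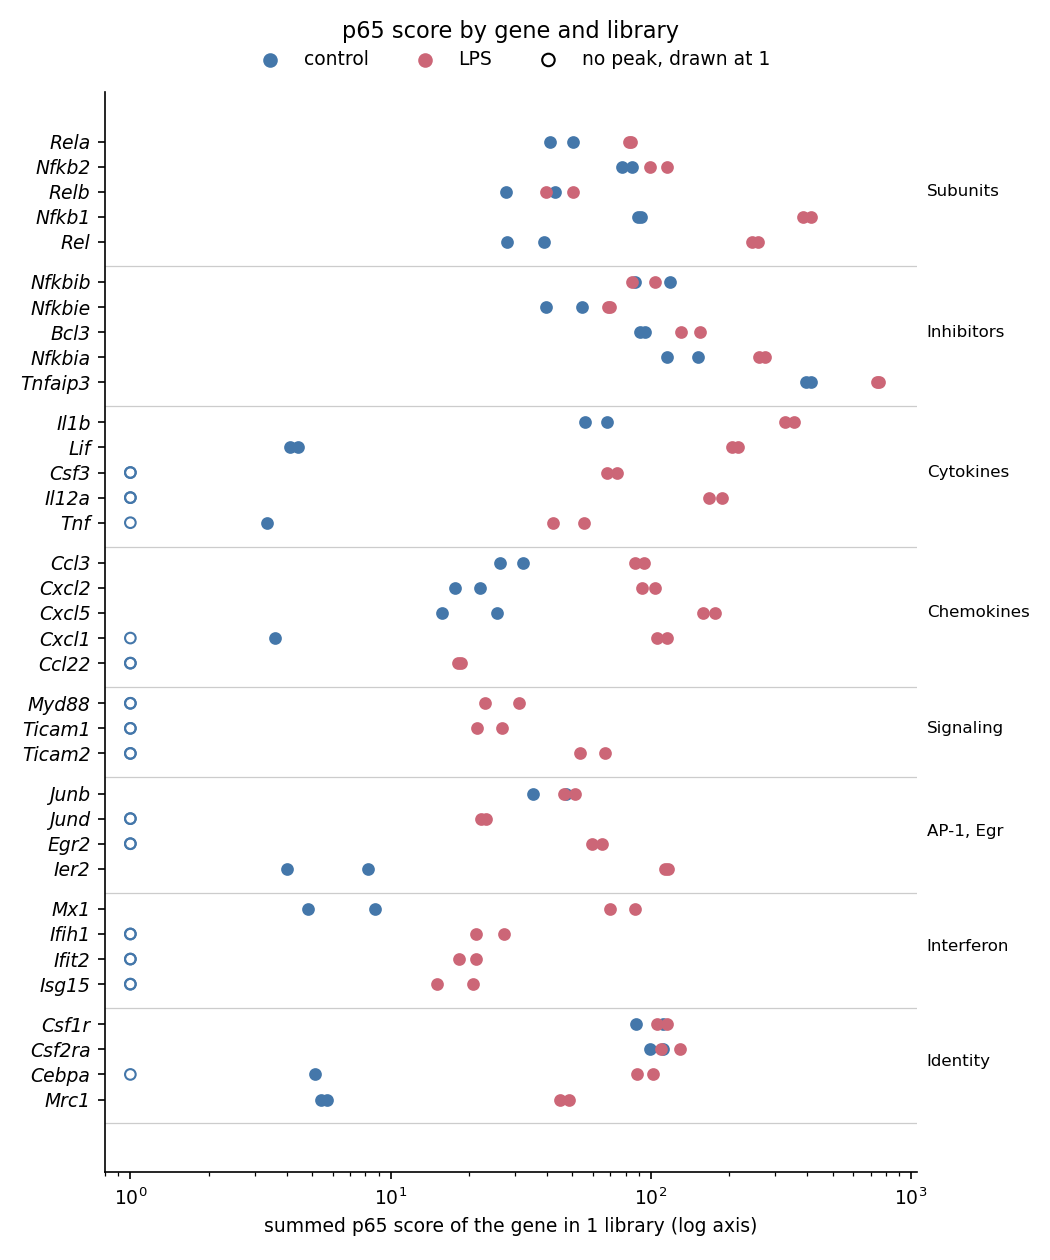
Summed p65 score in each library (x axis, log scale) for named genes grouped by list (y axis), with control libraries in blue, LPS libraries in red, and libraries without a peak as open circles at 1. At Lif, Rel, and Il1b both LPS points lie above both control points, and at Relb, Nfkbib, Junb, and Csf1r the groups overlap.

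Genes of LPS sensing had higher sums after LPS in most cases. Of 20 tested, 7 rose and 3 fell with centering, 18 rose without it, and 5 had no control peak. Tlr4, the LPS receptor, went from 7.07 and 10.97 to 94.3 and 95.2 (1.75, adjusted p = 0.0224). Cd14, its co-receptor, went from 24.8 and 21.4 to 144 and 137 (0.93, adjusted p = 0.0258). Both genes had LPS sums far above the control sums. The adaptor genes Myd88, Ticam1, and Ticam2 had no control peak and summed to 31.0 and 23.1, 26.9 and 21.5, and 53.5 and 66.4. Tlr2, the lipopeptide receptor, was strongly bound before, with 185 and 217 against 289 and 308, and fell on the centered scale (-1.102, adjusted p = 0.0109) while it rose without centering (0.57, adjusted p = 0.0144).

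In the list of adhesion molecules, enzymes, and surface proteins, 12 of 25 genes rose and 3 fell with centering, 24 rose without it, and 7 had no control peak. Ptges summed to 166 and 178 after LPS from 3 gained regions. Ptgs2, which encodes the inducible cyclooxygenase COX-2 that supplies PTGES, went from 18 and 12.3 to 113 and 159 (1.49, adjusted p = 0.0378). Plaur, the urokinase receptor, and Hdc, the histamine-forming enzyme, had no control peak and summed to 33.7 and 27.5, and to 29.9 and 26.6. The strongest p65 region of all after LPS was in intron 2 of Sod2, the mitochondrial superoxide dismutase, with 145 and 128 in the controls and 254 and 241 after LPS. Its rise was below that of the median shared region and did not pass at the region level (-0.26 ± 0.09 SE, adjusted p = 0.0970).

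Immediate early genes and interferon-response genes had mixed values. Of 19 immediate early genes, 4 rose and 2 fell with centering, and 18 rose without it. Ier2 went from 8.19 and 4.01 to 113 and 117 (2.65 ± 0.45 SE, adjusted p = 0.0235), of which 3 gained regions, at the promoter and on both sides of it, supplied most. Egr2 and Jund, which encode transcription factors, had no control peak and summed to 59.4 and 64.98, and to 22.3 and 23.2. Junb, an AP-1 subunit, went from 47.2 and 35.4 to 46.3 and 51.0, so its groups overlapped on the raw scale, and its centered change was -1.43 (adjusted p = 0.0226) against 0.25 without centering (adjusted p = 0.364). Of 17 interferon-response genes, 5 rose and 1 fell with centering, and 13 rose without it. Mx1, an antiviral GTPase, went from 4.80 and 8.71 to 69.8 and 87.0 (1.91 ± 0.38, adjusted p = 0.0327), and Ifih1, Ifit2, and Isg15 had no control peak. Of 17 inflammasome and cell death genes, 2 rose and 3 fell with centering, and 15 rose without it. The survival gene Birc2 went from 6.77 and 7.62 to 51.1 and 56.9 (1.23 ± 0.24, adjusted p = 0.0314), and the pore-forming effector Gsdmd from 15.4 and 24.5 to 22.1 and 20.3, which was a centered change of -1.55 (adjusted p = 0.0363) and 0.13 without centering.

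Lists chosen for other functions also held genes that moved. Of 22 macrophage identity genes, 3 rose and 5 fell with centering, and 16 rose without it. Cebpa, a myeloid lineage factor, had 5.14 in control replicate 1, no peak in control replicate 2, and 88.6 and 102 after LPS from 7 peaks in each library (adjusted p = 0.0413). Mrc1, the mannose receptor, went from 5.68 and 5.41 to 48.6 and 44.9 (1.40 ± 0.26 SE, adjusted p = 0.0275). The LPS values of both genes lay above the control values. Csf1r, the MCSF receptor, had 87.95 and 112 against 115 and 106, which overlapped, with a centered change of -1.52 (adjusted p = 0.0109) and 0.16 without centering. Of 16 genes of alternative activation, 1 rose and 3 fell with centering, and 14 rose without it. The riser, Clec7a, had no control peak. The fall of Stat6 in summed score, from 32.8 and 20.8 to 6.21 and 7.81, rested on the annotation, since the peaks of a region upstream were annotated to Stat6 in the controls and to Lrp1 after LPS. With 1 gene for each merged region, a setting chosen after seeing the data, Stat6 had 13.5 and 5.17 against 6.21 and 7.81 (-1.93, adjusted p = 0.0825) and 2 genes of the list rose and 2 fell. Peaks carried different genes in different libraries at 81 of 34145 regions (0.237%). Of 10 housekeeping genes, 2 rose and 1 fell with centering and 5 rose without it, and of 11 genes of other hematopoietic cells, 1 rose and 2 fell with centering and 8 rose without it. The risers of these lists, Gusb, Pgk1, and Kit, had no control peak and entered only through the LPS libraries. Over all genes tested, 66.5% rose without centering.

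The letters under the peaks differed between gained and shared regions. The κB motif lay in the central 200 bp at 3.62% of 12243 gained regions, 9.11% of 5608 shared regions, and 4.54% of 441 lost regions, against 4.21% of all regions. TGANTCA was more frequent in gained than in shared regions, at 34.5% of gained, 14.6% of shared, and 2.04% of lost regions, against 5.48% of promoters and 5.29% of the PU.1 peaks without p65. The PU.1 letters GAGGAAGT were at 7.82% of gained and 12.5% of shared regions. The GC content was 46.0% for gained and 48.2% for shared regions. A match is a description of the letters and not proof of a bound site, and these shares were not tested.

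Within each class the shares moved with strength. Among regions with a peak in both LPS libraries, the κB letters rose from 2.70% at mean LPS scores under 5 to 6.22% at 20 to 40 and 13.9% above 80, where TGANTCA was at 26.8%. Among gained regions, TGANTCA rose from 30.3% at scores up to 10 to 42.1% above 20, where the κB letters were at 4.74%. Among shared regions, TGANTCA was at 3.49% of those whose raw score fell by over 0.5 log2 units and at 32.2% of those that rose by over 2.5, while the κB letters went from 11.8% to 6.11%. Of the 10 regions with the largest rise, 7 held TGANTCA and 0 held the κB motif anywhere in the region. Of the 12 regions with the highest LPS scores, 4 held the κB motif, near Ccdc88b, Poc1b, 4930529L06Rik, and Fyb, and 5 held TGANTCA. These counts are of whole regions, and the shares above are of the central 200 bp, so they cannot be set against each other. The share of all regions with a match anywhere was not counted. A looser κB search with GGNNNTTCC, chosen after seeing the data, gave 26.4% of gained and 38.1% of shared regions against 13.1% of promoters, and kept the same order.

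Single κB sequences also differed in frequency. The sequence GGGAAATTCC was the most common match in gained regions, with 121 regions (0.988%), and it was at 96 shared regions (1.71%). GGGACTTTCC, present in the Il1b and Nfkb1 sequences shown above, was the most common in shared regions, with 149 (2.66%), against 60 gained regions (0.490%). GGGAATTTCC, present at Nfkbia and Cxcl2, was at 88 gained (0.719%) and 100 shared regions (1.78%). All 3 took a larger share of shared than of gained regions.

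**Figure D4:**
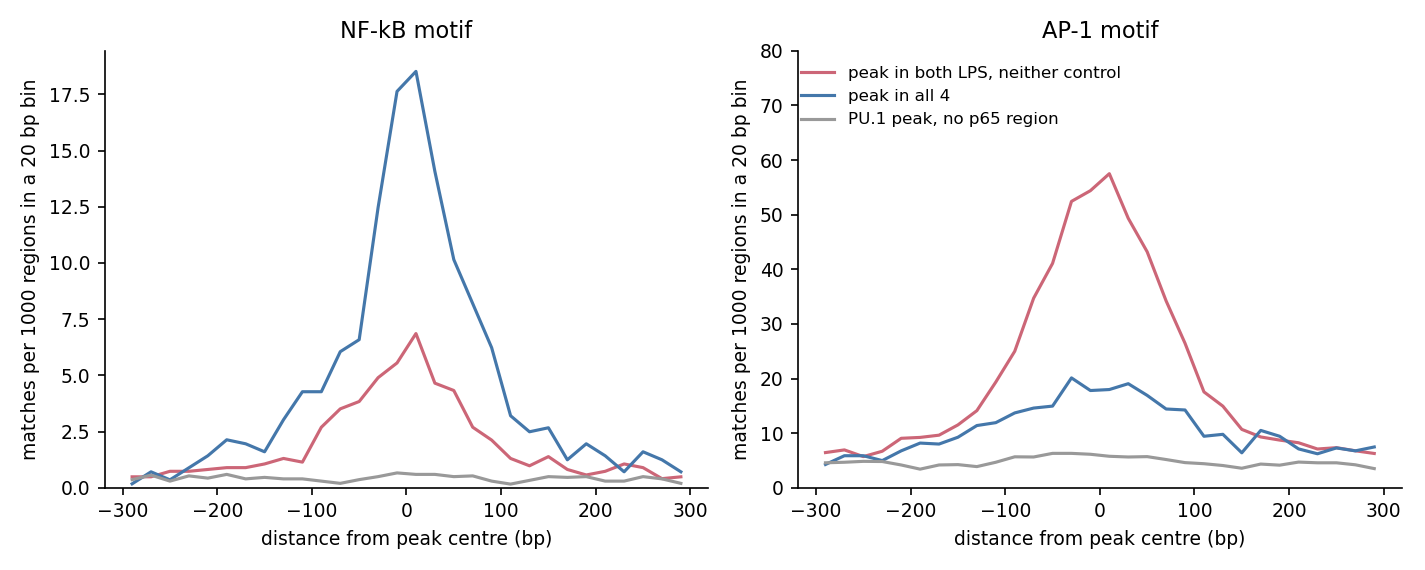
Matches per 1000 regions (y axis) in 20 bp bins of distance from the peak center (x axis, bp) for the NF-κB and AP-1 letters, in gained regions, shared regions, and PU.1 peaks without p65. For p65 regions this is the center of the region's highest peak. In p65 regions matches of both kinds are most frequent near the center, with the NF-κB letters higher in shared and the AP-1 letters higher in gained regions.

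Gained regions overlapped the chromatin features of untreated macrophages less often than shared ones and less often than all p65 regions. PU.1 peaks of the 2 untreated libraries overlapped 52.7% and 49.7% of gained and 82.5% and 79.9% of shared regions. For p300, which acetylates enhancer histones, the overlaps were 62.7% and 75.0% against 92.3% and 96.3%. For H3K27Ac, the mark of active enhancers and promoters, they were 39.0% in both libraries against 64.4% and 64.3%. None of the 6 libraries had a peak at 21.4% of gained regions, 1.96% of shared regions, and 16.0% of all regions. Over all p65 regions the overlaps were 58.6% and 55.2% for PU.1, 69.0% and 80.3% for p300, and 47.9% and 47.7% for H3K27Ac. Gained regions had lower p65 scores than shared ones (medians 9.13 and 9.32 against 21.42 and 21.84 after LPS), and neither the difference in overlap nor the part of the scores in it was tested.

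RNAPII-pS5, the polymerase phosphorylated at the start of transcription and found at promoters and active enhancers, was read at the same regions. A pS5 peak overlapped 19.5% and 18.4% of gained regions in control cells and 30.9% and 32.8% after LPS. The rise was at regions away from promoters. Beyond 1 kb of a TSS the shares were 15.6% and 14.6% in the controls and 29.2% and 31.0% after LPS, and at the 1277 gained regions within 1 kb they were 52.8% and 50.5% against 45.7% and 48.7%. At gained regions with a mean LPS score over 20, the shares were 15.6% and 15.2% in the controls and 56.5% and 58.7% after LPS. Shared regions had 66.9% and 64.0% in the controls and 61.5% and 63.1% after LPS, and of 442 lost regions, 230 and 221 had one in the controls and 57 and 52 after LPS. The number of pS5 peaks per library was lower after LPS (14476 and 15349) than in the controls (20803 and 19279). Control and LPS shares overlapped in none of these groups.

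A limma fit over all 19783 pS5 regions called 3581 (18.1%) higher and 6172 (31.2%) lower after LPS. The balance turned under several settings, with 1476 higher and 310 lower without control replicate 1, 1224 and 231 without control replicate 2, 4006 and 3610 with quantile normalization, 2205 and 1845 with the higher floor, and 947 and 763 with a peak in every library. Only 6906 of the pS5 regions had a peak in every library. A region with pS5 peaks only in the LPS or only in the control libraries entered through them, took the floor elsewhere, and had to differ. The share of such regions in each p65 class below is not given. Of 3927 pS5 regions that overlapped a gained p65 region, 41.2% were higher and 10.4% lower. Of 3995 that overlapped a shared p65 region, 16.7% were higher and 16.2% lower, and of 6689 with no p65 region, 12.1% were higher and 48.1% lower. Of 207 that overlapped a lost p65 region, 3 were higher and 143 (69.1%) lower. The shares at gained regions were higher away from promoters, with 46.8% higher and 8.55% lower beyond 1 kb of a TSS against 19.1% and 17.5% within 1 kb. Without centering, 16.2% of all pS5 regions were higher and 32.4% lower, and at gained p65 regions 38.5% were higher and 11% lower.

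RNAPII-pS2, the elongating polymerase over gene bodies, was higher after LPS at a larger share of genes with more gained p65 regions. Over all 12213 genes tested with limma, 2159 (17.7%) were higher and 2147 (17.6%) lower after LPS. Without control replicate 1 the counts were 2028 and 739, and without control replicate 2 they were 2012 and 732. The share of higher genes was 8.44% without any p65 region, 8.26% with p65 regions but none gained, 20.0% with 1 gained region, 28.3% with 2, 38.1% with 3, and 55.0% with 4 or more. The share of lower genes went from 36.6% to 2.67% over the same classes. Gene length rose along with the number of gained regions, from a median of 14.7 kb to 66.8 kb, and its part in these shares was not tested. A pS2 peak at a gained p65 region could count for the same gene as that region. The part of such peaks in these shares was not tested either. A gene with pS2 peaks only in the LPS or only in the control libraries entered the test through them. A pS2 peak in every library was present at 8320 genes.

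Several named p65 genes also had higher pS2. At Lif, pS2 went from 23.5 and 35.3 to 173 and 169 (log2 change 2.42 ± 0.24 SE, adjusted p = 0.00962). At Il12a it went from 9.83 and 6.25 to 78.1 and 70.1 (3.09 ± 0.29, adjusted p = 0.00962), and at Tnfaip3 from 208 and 179 to 400 and 409 (0.92 ± 0.09, adjusted p = 0.00962). The LPS values of all 3 genes lay above the control values, and the share of all genes with such a separation in pS2 was not counted. At Nfkbia it went from 75.2 and 72.0 to 129 and 129 (0.66 ± 0.11, adjusted p = 0.0117), while its promoter p65 scores were those given above. At Ptges no pS2 peak was called in the controls, and the sums after LPS were 30.7 and 18.95. Of the lists, the cytokine genes had 10 of 19 higher and 0 lower, the feedback inhibitors 7 of 14 higher and 0 lower, and the genes of adhesion, enzymes, and surface proteins 12 of 24 higher and 3 lower, while 0 of 14 housekeeping genes were called in either direction. Other lists were mixed, with 5 of 14 chemokine genes higher and 0 lower, 2 of 5 subunit genes higher and 0 lower, 6 of 17 inflammasome genes higher and 2 lower, 6 of 19 immediate early genes higher and 3 lower, and 5 of 19 interferon-response genes higher and 2 lower. Of 20 genes of LPS sensing, 1 was higher and 2 were lower, and of 23 macrophage identity genes, 3 were higher and 5 lower. Of 17 genes of alternative activation, 7 were higher and 2 lower, and of 13 genes of other hematopoietic cells, 4 were higher and 1 lower.

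Other genes gained p65 regions without a rise in pS2. Ier2, with 3 gained p65 regions, had pS2 sums of 62.3 and 67.1 in the controls and 50.6 and 51.5 after LPS (-0.49 ± 0.15 SE, adjusted p = 0.0582). Cebpa, with 6 gained regions, had 71.9 and 48.1 against 59.1 and 62.7 (-0.10 ± 0.22, adjusted p = 0.753). Saa3, an acute-phase gene whose single p65 region was gained with scores of 20.8 and 39.7, had pS2 sums of 10.7 and 7.24 in the controls and no pS2 peak after LPS. A pS2 value that did not pass the test does not show that pS2 was unchanged.

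**Figure D5:**
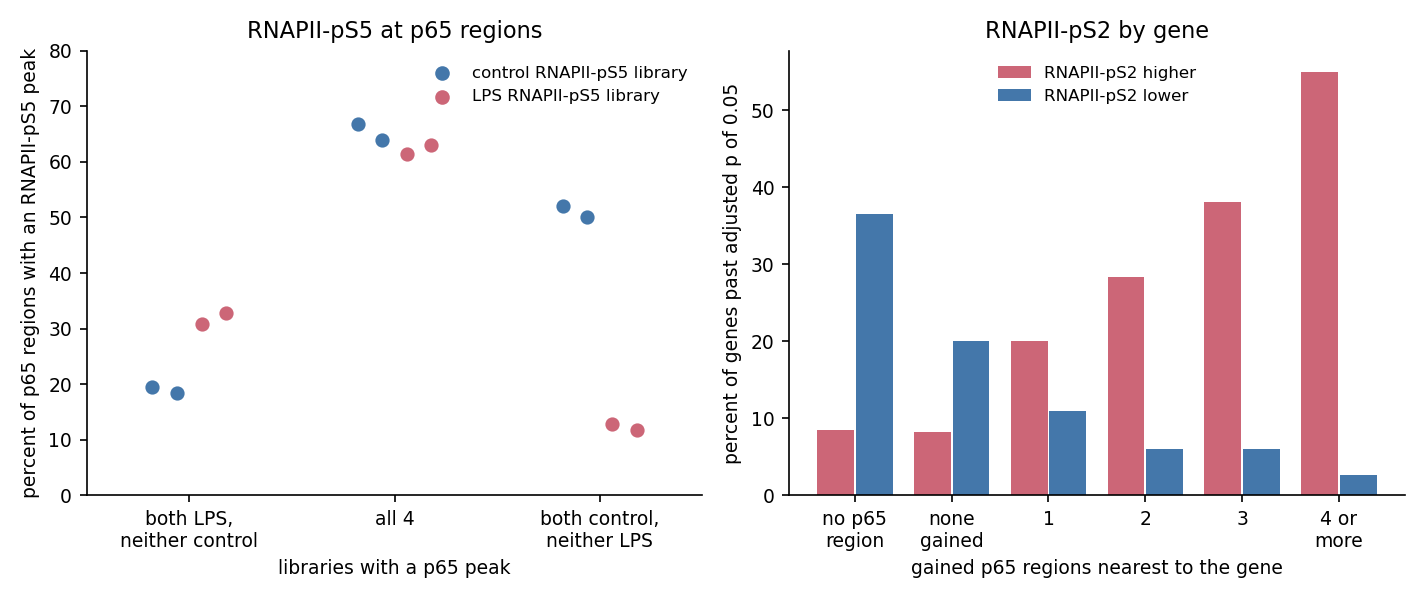
Left, percent of p65 regions that overlap an RNAPII-pS5 peak (y axis) in each control and LPS library, for gained, shared, and lost regions (x axis). Right, percent of genes with higher or lower RNAPII-pS2 after LPS by limma (y axis) against the number of gained p65 regions (x axis). Overlap goes up over all gained regions, though not at those within 1 kb of a TSS, and down at lost regions, and the share of higher genes goes from 8.44% to 55.0%.

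In cells pretreated with IL-4 for 24 hr, LPS gave 36738 and 38955 p65 peaks. Of regions gained without pretreatment in the merge of all 8 p65 libraries (12186), 7693 (63.1%) were also gained after pretreatment, and these were 39.6% of the 19449 regions gained there. A limma interaction test over 37564 regions found the LPS change larger after IL-4 at 6716 (17.9%) and smaller at 2049 (5.45%). The order turned to 2620 larger and 7915 smaller with the higher floor and to 2095 and 2111 with scores of at least 5, and the counts were 27 and 89 without the pretreated LPS replicate 1 and 109 and 465 without replicate 2. A region with peaks in only a single LPS group entered the test through that group and took the floor elsewhere, so its direction depended on the floor. Of the 5631 regions of this merge that were shared without pretreatment, 396 were called larger and 148 smaller. At the gained region of Ppm1h, a phosphatase gene named above for its rise without pretreatment, scores of 94.3 and 111 without pretreatment compared with 42.4 and 43.6 after it, with no peak without LPS in either case. At a gained region of Vav3, also called smaller, scores after LPS were 80.02 and 79.03 without pretreatment and 87.1 and 85.73 after it. Peaks of 11.84 and 14.99 were called there with IL-4 alone, where the cells without IL-4 or LPS had none. A smaller LPS change thus did not always mean lower scores after LPS. How many of the 2049 regions were of each kind was not counted. Both regions were chosen from those gained without pretreatment, so these values are a description.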

How the data were processed

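Peak lists of p65, RNAPII-pS5, RNAPII-pS2, PU.1, p300, and H3K27Ac ChIP-seq were used as deposited. The submitters' processing notes name BWA 0.7.10, SAMtools 0.1.19, HOMER 4.2, and MACS2 2.0.10, and the coordinates are mm10. The score column deposited by the authors was read as a −log10 p- or q-value from MACS2, inferred from its values, one list per library. For H3K27Ac the authors deposited HOMER peaks with a normalized tag signal, of which only the positions were used. Read counts were not used here, so the depth of each library is unknown and fewer reads would give fewer peaks and lower scores.

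Peaks of the compared libraries were merged at an overlap of 1 bp, and a region took the highest score in each library. Regions or genes with a peak in at least 2 libraries were tested, a missing peak was set to the lowest score of the antibody (1.31 for p65, 1.44 for pS5, and 1.39 for pS2), and log2 scores were centered on features with a peak in all libraries. A gene took the sum of the scores of peaks that HOMER annotated to it, so that a region could count for different genes in different libraries. Differences were tested with limma 3.58.1 in R 4.3.3 (empirical Bayes with trend), and adjusted p-values are Benjamini-Hochberg values over all features, called at 0.05. The fit was tested on simulated data. Motifs were searched on both strands of GRCm38 with pysam 0.24.0.

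Named genes were Nfkbia, Tnfaip3, Tnf, Il1b, Cxcl2, and Ccl3, the 4 members of each list with the largest change that passed with separated groups, and the genes of the 10 largest rises and 5 largest falls among regions. Other genes and regions in the text, such as Tlr4, Ptgs2, Socs3, and the regions of NF-κB genes, were chosen after their values were seen. The members and gene lists were chosen with earlier results of these data known.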

Additional observations from a re-analysis of the deposited data

Results flagged for a closer look

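The effect of LPS on p65 differed between cells with and without IL-4 pretreatment by a test of the difference itself (limma interaction). A region with peaks in only a single LPS group entered this test through that group and took the floor elsewhere, so its direction depended on the floor. The LPS change was larger after IL-4 at 6716 regions and smaller at 2049. The order turned to 2620 larger and 7915 smaller with a floor for missing peaks 4 times as high and to 2095 and 2111 with scores of at least 5. Without the pretreated LPS replicate 1 or 2 the counts were 27 and 89, or 109 and 465.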

How the results depend on the processing

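Counts are given as higher and lower after LPS. For p65 regions they were 15261 and 609 without centering, 2861 and 2835 with quantile normalization, 3435 and 7656 with a floor 4 times as high, and 3777 and 3346 with peaks scoring at least 5, and 954 were higher among regions with a peak in every library. For p65 genes they were 6338 and 163 without centering, 1354 were higher with quantile normalization, 839 were higher with a peak in every library, 3500 were lower with the higher floor, 2075 were lower with scores of at least 5, and 569 were lower without intergenic peaks. For pS5 regions they were 947 and 763 with a peak in every library and 2205 and 1845 with the higher floor, and 3610 were lower with quantile normalization and 2488 with scores of at least 5. For pS2 genes 1183 were lower with a peak in every library. For the IL-4 interaction, 2620 were larger and 7915 smaller with the higher floor, 2095 were larger with scores of at least 5, and 3420 were smaller at an unadjusted p of at most 0.05. The cause of these moves was not tested, except that fewer features were tested where a peak was required in every library.

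Leaving out 1 library gave 512 to 8468 higher and 669 to 2317 lower p65 regions, 454 to 2962 and 576 to 1907 p65 genes, 486 to 1476 and 231 to 2419 pS5 regions, 1340 to 2028 and 732 to 1776 pS2 genes, and 27 to 7096 larger and 89 to 1857 smaller interactions. Without LPS replicate 1 or 2, 545 and 512 p65 regions were higher, since gained regions then no longer passed the filter, and without the pretreated LPS replicate 1 or 2, 27 and 109 interactions were larger. The gained count ranged from 13753 to 17231.

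Without centering the log2 change turned from lower to higher for Tnfaip3 (0.89), Junb (0.25), Klf4 (1.16), Abca1 (1.17), Gsdmd (0.13), Casp4 (0.83), Csf1r (0.16), Csf2ra (0.18), Nfkbie (0.57), Bcl3 (0.61), Relb (0.37), Nfkb2 (0.40), and Rela (0.87). Klf4 was 0.073 with the highest peak score, Ccl22 was -0.094 and Pgk1 -0.27 with scores of at least 5, and Pgk1 was -0.40 with the higher floor. With 1 gene for each merged region, chosen after seeing the data, 2170 p65 genes were higher and 956 lower, and the Stat6 call was lost. The κB motif was at 2.26% of gained, 6.01% of shared, and 2.71% of all regions in a 100 bp window, and the looser letters GGNNNTTCC, chosen after seeing the data, at 26.4%, 38.1%, and 26.4%. With the replicate block, 8883 p65 regions were higher and 1778 lower, and no count moved by over 1.5 times. Across the 5619 shared regions, the difference between the controls and that between the LPS libraries correlated with Pearson's r of 0.008596. Regions are not replicates, so this does not settle whether libraries of the same number were paired. The 15 named regions kept their direction and call under each alternative in which they could be fitted. The largest rises among them had no control peak and took the floor there. Their direction could therefore hardly turn, and this outcome does not test it. Without LPS replicate 1 or 2, only 5 of the 15 could be fitted.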

Other observations

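The genes with the most gained p65 regions were 1700016G22Rik with 24 of 41 regions, Lpp with 23 of 43, Foxp1 with 19 of 41, and Ext1 with 19 of 33. Of the shared p65 regions, 135 lay in simple repeats. At these regions the median ratio of LPS to control was 0.8976-fold, with median scores of 20.87 and 24.05 in the controls and 20.68 and 21.61 after LPS, against 1.949-fold at other shared regions. Both LPS scores lay below both control scores at 45 of them and above at 22.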
